A study of Xenopus laevis with 45 samples.

Results

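The S copies of caprin2, phf12, thap1 and eif4g3 are genes of the frog Xenopus laevis whose transcript levels stood apart in embryos injected with the antisense morpholino ERFE MO2. At stage 37/38 their levels with a second morpholino against the same target, ERFE MO1, were nearer to those with its 10 ng control morpholino than to those with MO2. This did not hold at every stage. At stage 41 the mean of caprin2.S with MO1 was nearer to that with MO2 than to that of any control group. At the earliest stage the eif4g3.S libraries of all conditions overlapped. All copies listed under the names of the 4 genes were followed, which gave 8 of the 45038 gene identifiers: an S copy and an L copy of each gene. The S copies were chosen from their response to MO2, so their values in the morpholino comparisons are a description and carry no test. The comparison of stages in uninjected embryos played no part in that choice and was tested. The L copies were also tested. They were not among the copies chosen for a response to MO2, so their lack of change with MO2 is not independent of the choice. The 10 ng control morpholino was also tested against uninjected embryos. Its libraries are the control for MO1, so for the S copies that test is not independent of the choice.

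Xenopus laevis descends from a cross of ancestral frog species, so many of its genes occur as a pair of homeologous copies, named L and S after the longer and the shorter chromosome of each pair. Morpholinos are synthetic oligonucleotides that bind an RNA and block its translation or splicing. Their common target here is erythroferrone (ERFE), a hormone made by developing red blood cells, which captures bone morphogenetic proteins and so restrains their signalling. Caprin2 is an RNA-binding protein of neuronal RNA granules, known in the frog as RNG140, and in frog and mammalian cells it also takes part in phosphorylating the Wnt co-receptor LRP6. Phf12 is a zinc finger protein that joins the Sin3 histone deacetylase complex to TLE corepressors. Thap1 is a zinc finger DNA-binding protein, and mutations of the human gene cause a form of dystonia. Eif4g3 is a scaffold of translation initiation that joins the cap-binding protein eIF4E, the helicase eIF4A and the poly(A)-binding protein.

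RNA was sequenced from whole embryos. The 8-cell embryo received 20 ng ERFE MO2, 10 ng ERFE MO1, 20 ng of a standard control morpholino (cMO) or 10 ng cMO in 4 vegetal blastomeres, or was left uninjected. Embryos of each of these 5 conditions were taken at stages 35/36, 37/38 and 41, with 3 libraries per group, which makes 15 groups and 45 libraries. MO2 and MO1 were given in different amounts, so MO2 is set against 20 ng cMO and MO1 against 10 ng cMO, and a direct comparison of MO2 with MO1 also differs in amount. The labels name no strain, and whether replicate libraries are from different clutches is not stated. P-values therefore measure the spread among these libraries, part of which may be technical. In whole-embryo RNA, fewer cells of a type and less RNA per cell cannot be told apart.

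The libraries hold 19342567 to 41922031 assigned counts, and 31817 genes, all 8 copies among them, had enough counts to be tested. Each listed marker of red blood cells, heart and skeletal muscle, liver, lens and eye, neurons, epidermis and pronephros was detected in all 45 libraries, and 2 of 3 listed pancreas markers were. The targeted transcript, listed as fam132b.L, had 1.39 to 9.15 CPM (counts scaled to the effective library size), and its log2 fold change against the matched cMO was -0.17 ± 0.41, -0.78 ± 0.40 and -0.86 ± 0.40 (SE) with MO2 at stages 35/36, 37/38 and 41 (edgeR quasi-likelihood adjusted p = 1.0, 1.0 and 0.53). A transcript level does not check a morpholino that blocks translation. One library stands apart from its label. The library labelled MO2 stage 35/36 replicate 1 differed from that labelled MO1 stage 37/38 replicate 2 by a chi-square of 1.22 per gene over 31834 genes, the lowest of all 990 pairs of libraries; the next closest pair had 3.78, and the closest pair within a group had 10.2. Counting noise alone would give about 1 per gene by this measure. These libraries had 21.1 and 20.7 CPM of phf12.S, against 29.1 and 36.5 CPM in replicates 2 and 3 of MO2 at stage 35/36. Whether the label is wrong was not tested, and the MO2 values of stage 35/36 with 3 libraries rest on it. That library is kept as labelled, and the stage 35/36 values of the 8 copies with MO2 over 20 ng cMO are given with and without it.

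With MO2, caprin2.S was lower at all 3 stages, phf12.S and thap1.S were higher at all 3, and eif4g3.S was higher at stages 37/38 and 41. Relative to 20 ng cMO at stage 37/38, caprin2.S was at 47.7%, phf12.S at 183%, thap1.S at 195% and eif4g3.S at 151%. With MO1 relative to 10 ng cMO at the same stage, the 4 S copies were at 79.1%, 91.6%, 88.3% and 96.0% in the same order. The comparisons were made within a single fit of all libraries, and each log2 fold change carries its standard error (SE) from that fit.

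**Figure D1:**
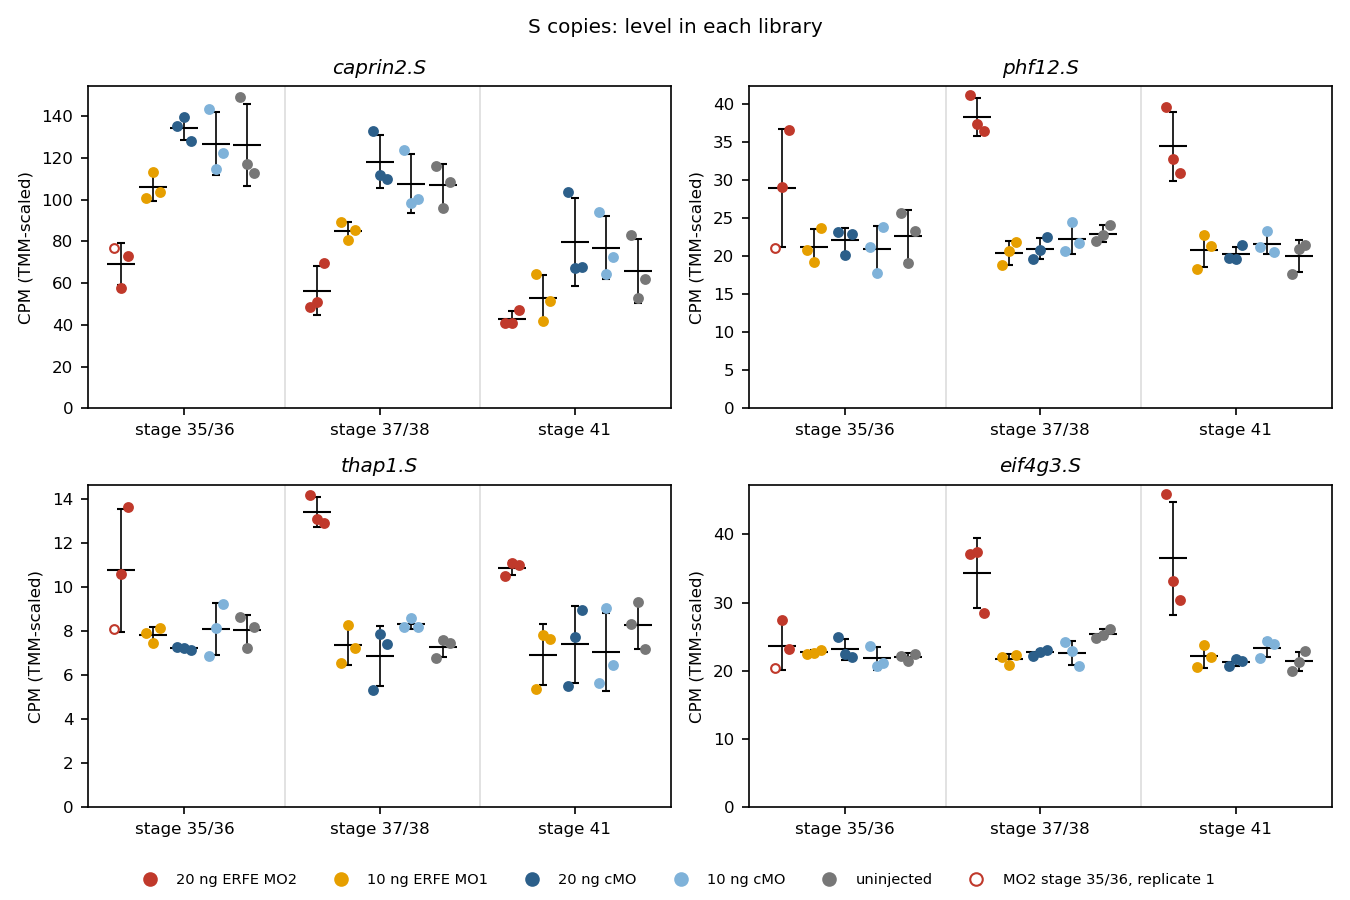
Level of each S copy (vertical axis, CPM from 0) in every library at stages 35/36, 37/38 and 41. Points are libraries, horizontal bars are group means, error bars are SD (n = 3), and the open circle is the library labelled MO2 stage 35/36 replicate 1. At stage 37/38 the 3 MO2 libraries lie below the other 12 for caprin2.S and above them for the other S copies.

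The caprin2.S transcript was the one S copy with a lower level in MO2 embryos. At stage 35/36 its level was 76.9, 57.8 and 72.7 CPM with MO2 (replicates 1 to 3), 101, 113 and 104 CPM with MO1, 135, 139.6 and 128 CPM with 20 ng cMO, 143, 115 and 122 CPM with 10 ng cMO, and 149, 117 and 113 CPM in uninjected embryos. All 3 MO2 libraries were below the other 12 of the stage, as were the 2 without the library that stands apart. That library, at 76.9 CPM, was near the 80.7 CPM of its closest match, MO1 stage 37/38 replicate 2. Caprin2.S at stage 37/38 had 48.6, 50.7 and 69.7 CPM with MO2, 89.1, 80.7 and 85.6 CPM with MO1, 133, 112 and 109.8 CPM with 20 ng cMO, 124, 98.6 and 100.3 CPM with 10 ng cMO, and 116, 95.9 and 108 CPM in uninjected embryos. The MO2 libraries were again below all others, and the 3 MO1 libraries lay between them and the controls. At stage 41 the levels were 40.8, 40.9 and 47.3 CPM with MO2, 64.5, 42.0 and 51.6 CPM with MO1, 104, 67.2 and 67.5 CPM with 20 ng cMO, 93.9, 64.5 and 72.5 CPM with 10 ng cMO, and 82.9, 52.9 and 61.8 CPM in uninjected embryos. There the MO1 libraries overlapped both the MO2 and the uninjected libraries.

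The order of the caprin2.S group means was the same at each stage: MO2 lowest, then MO1, uninjected, 10 ng cMO and 20 ng cMO. MO2 and MO1 did not overlap at stages 35/36 and 37/38, MO1 and uninjected did not overlap at stage 37/38, and all other neighbours in the order overlapped. The log2 fold change of MO2 over 20 ng cMO was -0.96 ± 0.18 at stage 35/36, -1.04 ± 0.21 there without the library that stands apart, -1.07 ± 0.18 at stage 37/38 and -0.89 ± 0.18 at stage 41, where it was -0.63 without replicate 1 of 20 ng cMO. MO1 over 10 ng cMO gave -0.26 ± 0.17, -0.34 ± 0.17 and -0.55 ± 0.17 at the 3 stages, and caprin2.S was lower with MO1 than with 10 ng cMO for each of the 3 replicate numbers at every stage. The stage 35/36 value was -0.15 without replicate 1 of 10 ng cMO. MO2 over MO1 gave -0.62 ± 0.17, -0.60 ± 0.17 and -0.30 ± 0.18, a difference that includes the amount injected. With each morpholino set against its own amount of cMO, the MO2 response minus the MO1 response was -0.70 ± 0.25, -0.73 ± 0.25 and -0.34 ± 0.25. Without the library that stands apart, the stage 35/36 values of MO2 over MO1 were -0.71 for caprin2.S, 0.62 for phf12.S, 0.62 for thap1.S and 0.15 for eif4g3.S.

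The phf12.S transcript was higher with MO2. Its level at stage 35/36 was 21.1, 29.1 and 36.5 CPM with MO2, 20.8, 19.2 and 23.7 CPM with MO1, 23.1, 20.1 and 22.9 CPM with 20 ng cMO, 21.2, 17.8 and 23.8 CPM with 10 ng cMO, and 25.7, 19.1 and 23.2 CPM in uninjected embryos. The low MO2 value is that of the library that stands apart, and the other two were above all libraries of the other conditions. Phf12.S at stage 37/38 had 41.1, 37.3 and 36.5 CPM with MO2, 18.8, 20.7 and 21.8 CPM with MO1, 19.7, 20.8 and 22.5 CPM with 20 ng cMO, 20.7, 24.5 and 21.6 CPM with 10 ng cMO, and 21.9, 22.7 and 24.1 CPM in uninjected embryos. The lowest MO2 library was well above the highest of the other 12, which had 24.5 CPM. At stage 41 the levels were 39.5, 32.7 and 30.9 CPM with MO2, 18.3, 22.8 and 21.3 CPM with MO1, 19.7, 19.6 and 21.4 CPM with 20 ng cMO, 21.2, 23.2 and 20.5 CPM with 10 ng cMO, and 17.6, 20.9 and 21.5 CPM in uninjected embryos. The MO2 libraries again lay above all others of the stage, and replicate 1 was the highest of them.

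Below MO2, the phf12.S means of the other conditions were 20.0 to 22.9 CPM over the 3 stages, and neighbouring conditions overlapped at each stage. The log2 fold change of phf12.S, MO2 over 20 ng cMO, was 0.39 ± 0.14 at stage 35/36, 0.57 ± 0.13 there without the library that stands apart, 0.87 ± 0.14 at stage 37/38 and 0.76 ± 0.14 at stage 41. Without replicate 3 of MO2 the stage 35/36 value was 0.20. MO1 over 10 ng cMO gave 0.02 ± 0.14, -0.13 ± 0.14 and -0.06 ± 0.14, each within its SE of 0, and MO2 over MO1 gave 0.44 ± 0.14, 0.91 ± 0.14 and 0.73 ± 0.14.

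The thap1.S transcript had the largest ratio of the 3 S copies that were higher with MO2 at stage 37/38. Its stage 35/36 level was 8.09, 10.6 and 13.6 CPM with MO2, 7.93, 7.48 and 8.15 CPM with MO1, 7.28, 7.24 and 7.15 CPM with 20 ng cMO, 6.88, 8.16 and 9.24 CPM with 10 ng cMO, and 8.66, 7.26 and 8.21 CPM in uninjected embryos. As for phf12.S, the library that stands apart lay among the controls and the other two MO2 libraries lay above them. Thap1.S at stage 37/38 had 14.2, 13.1 and 12.9 CPM with MO2, 6.55, 8.29 and 7.23 CPM with MO1, 5.34, 7.86 and 7.43 CPM with 20 ng cMO, 8.21, 8.62 and 8.18 CPM with 10 ng cMO, and 6.79, 7.60 and 7.45 CPM in uninjected embryos. MO2 libraries did not overlap with any other condition. At stage 41 the levels were 10.5, 11.1 and 11.0 CPM with MO2, 5.36, 7.83 and 7.64 CPM with MO1, 5.51, 7.74 and 8.98 CPM with 20 ng cMO, 5.67, 9.07 and 6.46 CPM with 10 ng cMO, and 8.34, 9.34 and 7.20 CPM in uninjected embryos. MO2 libraries were above the other 12, by a smaller distance than at stage 37/38.

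Group means of thap1.S other than MO2 were 6.88 to 8.34 CPM, and neighbouring conditions overlapped at each stage, apart from MO1 and 20 ng cMO at stage 35/36. Its log2 fold change with MO2 over 20 ng cMO was 0.58 ± 0.18 at stage 35/36, 0.75 ± 0.18 there without the library that stands apart, 0.96 ± 0.18 at stage 37/38 and 0.56 ± 0.18 at stage 41. The stage 35/36 value was 0.38 without replicate 3 of MO2. MO1 over 10 ng cMO gave -0.04 ± 0.18, -0.18 ± 0.18 and -0.03 ± 0.18, and MO2 over MO1 gave 0.45 ± 0.18, 0.86 ± 0.18 and 0.65 ± 0.18.

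The eif4g3.S transcript differed from phf12.S and thap1.S at the first stage. At stage 35/36 its level was 20.4, 27.4 and 23.2 CPM with MO2, 22.5, 22.7 and 23.0 CPM with MO1, 25.0, 22.4 and 22.1 CPM with 20 ng cMO, 23.7, 20.7 and 21.1 CPM with 10 ng cMO, and 22.1, 21.5 and 22.5 CPM in uninjected embryos. All 5 conditions overlapped. Without the library that stands apart, the MO2 libraries lay above those of MO1 and uninjected embryos and still overlapped both cMO amounts. Eif4g3.S at stage 37/38 had 37.2, 37.5 and 28.5 CPM with MO2, 22.1, 20.8 and 22.3 CPM with MO1, 22.3, 22.8 and 23.0 CPM with 20 ng cMO, 24.3, 22.9 and 20.7 CPM with 10 ng cMO, and 24.9, 25.2 and 26.2 CPM in uninjected embryos. MO2 was above all other libraries, and the uninjected libraries were above those of MO1 and both cMO amounts. At stage 41 the levels were 46.0, 33.1 and 30.4 CPM with MO2, 20.5, 23.8 and 22 CPM with MO1, 20.7, 21.8 and 21.4 CPM with 20 ng cMO, 21.9, 24.4 and 23.9 CPM with 10 ng cMO, and 20.0, 21.3 and 22.9 CPM in uninjected embryos. MO2 stood apart from the 12 others. Among those, neighbouring conditions overlapped, while 10 ng cMO lay wholly above 20 ng cMO. Replicate 1 of MO2 was the highest eif4g3.S value of all 45 libraries.

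For eif4g3.S the log2 fold change of MO2 over 20 ng cMO was 0.03 ± 0.11 at stage 35/36, 0.13 ± 0.12 there without the library that stands apart, 0.60 ± 0.11 at stage 37/38 and 0.78 ± 0.11 at stage 41. At stage 35/36 its sign depended on the libraries used, being -0.08 without replicate 2 of MO2. MO1 over 10 ng cMO gave 0.06 ± 0.11, -0.06 ± 0.11 and -0.08 ± 0.11, and MO2 over MO1 gave 0.05 ± 0.11, 0.66 ± 0.11 and 0.72 ± 0.11. The identifiers eif4g3-like.L and eif4g3-like.S were left out of the copies of eif4g3 because of their names alone. How they relate to eif4g3 was not tested. The log2 fold changes of eif4g3-like.L and eif4g3-like.S with MO2 over 20 ng cMO were between -0.09 and 0.03 at the 3 stages.

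The S copies were also set against 10 ng cMO and uninjected embryos, and the signs were those of the first comparison. MO2 over 10 ng cMO at stages 35/36, 37/38 and 41 gave log2 fold changes of -0.87, -0.93 and -0.84 for caprin2.S, 0.46, 0.78 and 0.67 for phf12.S, 0.41, 0.69 and 0.63 for thap1.S, and 0.11, 0.60 and 0.64 for eif4g3.S. MO2 over uninjected gave -0.87, -0.92 and -0.62 for caprin2.S, 0.35, 0.74 and 0.78 for phf12.S, 0.42, 0.88 and 0.39 for thap1.S, and 0.10, 0.44 and 0.77 for eif4g3.S. These comparisons share the MO2 libraries with the first one, and the S copies were chosen for their response to MO2. The shared signs are therefore a description and not a separate result. With all libraries, eif4g3.S at stage 35/36 had 0.11 ± 0.11 over 10 ng cMO and 0.10 ± 0.11 over uninjected (SE). These values were about as large as their SE, so no direction is read from them. Without the library that stands apart, the stage 35/36 values over 10 ng cMO were -0.96, 0.65, 0.59 and 0.22 for caprin2.S, phf12.S, thap1.S and eif4g3.S, and those over uninjected were -0.95, 0.54, 0.59 and 0.20.

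Counting the copies whose 3 MO2 libraries lay all above or all below the other 12 libraries of the stage gave 1 of 4 S copies at stage 35/36, where 0.493% of the genes tested separated in this way, 4 of 4 at stage 37/38 (2.17% of genes) and 3 of 4 at stage 41 (1.1% of genes). Without the library that stands apart it was 3 of 4 at stage 35/36, against 3.48% of genes. The S copies were chosen from these libraries, and nothing is read from the counts. The L copies gave 0 of 4 at stages 35/36 and 37/38 and 1 of 4, caprin2.L, at stage 41, and caprin2.L also separated at stage 35/36 without the library that stands apart. With MO1 in place of MO2, no S or L copy separated at any stage, where 1.17%, 2.92% and 1.89% of genes did at stages 35/36, 37/38 and 41.

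**Figure D2:**
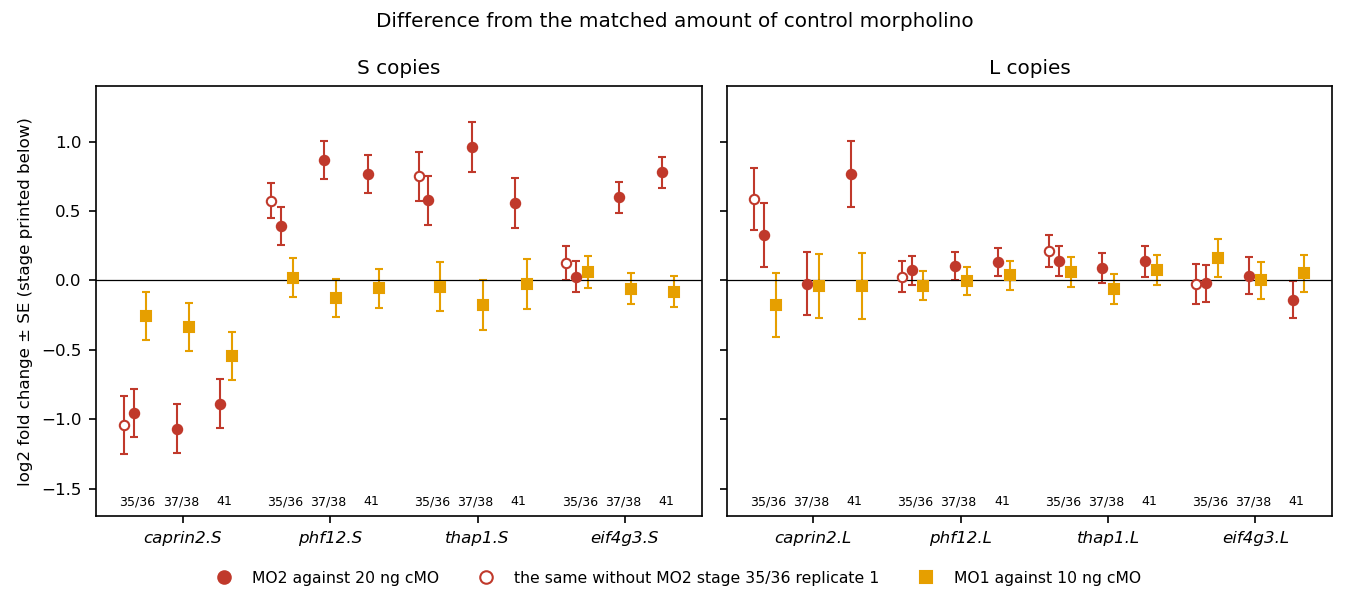
Log2 fold change of each copy with MO2 over 20 ng cMO and with MO1 over 10 ng cMO at the 3 stages, with error bars of 1 SE of the fit over all libraries. The S copies with MO2 run from -1.07 (caprin2.S) to 0.96 (thap1.S) at stage 37/38, while the L copies with MO2 at that stage lie between -0.02 and 0.10.

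In the fit with group terms alone, none of the 4 L copies changed with MO2 over 20 ng cMO at stages 35/36, 37/38 or 41 (edgeR quasi-likelihood test with Benjamini-Hochberg adjustment, lowest adjusted p = 1.0, 1.0 and 0.17), where 0.0189%, 0.0974% and 0.412% of all genes tested changed. DESeq2 also called none, against 0.128%, 0.269% and 0.992% of all genes. At an unadjusted p under 0.05 there were 0, 0 and 1 of 4, the last being caprin2.L, against 5.35%, 5.2% and 8.69% of all genes. MO1 over 10 ng cMO changed none of the 4 L copies at any stage either, by edgeR or DESeq2 or at an unadjusted p under 0.05, against 0.39%, 0.6% and 1.51% of all genes called by edgeR, 0.666%, 1.06% and 2.46% by DESeq2, and 6.38%, 7.21% and 11.9% at that unadjusted p. The L copies are those not chosen for a response to MO2, so these counts are not independent of that choice. The group terms do not use the replicate number. With that number as a block, caprin2.L was called with MO2 at stage 41 (edgeR adjusted p = 0.014), where the block called 5.8% of all genes.

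Caprin2.L is the L copy with the largest fold change over 20 ng cMO at stages 35/36 and 41, and the one with the lowest level. At stage 41 its level was 4.38, 5.39 and 3.88 CPM with MO2, 3.07, 3.22 and 2.82 CPM with MO1, 2.34, 2.89 and 2.80 CPM with 20 ng cMO, 2.99, 3.58 and 2.79 CPM with 10 ng cMO, and 2.65, 2.59 and 2.62 CPM in uninjected embryos. The MO2 libraries lay above all 12 others, while caprin2.S at that stage was lower with MO2 than with either cMO. The log2 fold change of caprin2.L over 20 ng cMO was 0.77 ± 0.24 (edgeR adjusted p = 0.17), and with the replicate number as a block it was 0.76 ± 0.19 (edgeR adjusted p = 0.014), in a fit that called 5.8% of all genes. The adjusted p of caprin2.L was 0.026 with a lane term in edgeR, in a fit that called 700 genes, and 0.099 with DESeq2. The stage 41 libraries hold 71 to 179 counts of this copy each.

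At the earlier stages caprin2.L varied more between libraries. Its level at stage 35/36 was 4.02, 7.08 and 8.35 CPM with MO2, and 3.71, 5.71 and 6.0 CPM with 20 ng cMO, with a log2 fold change of 0.33 ± 0.23, or 0.59 ± 0.23 (edgeR adjusted p = 0.69) without the library that stands apart. Caprin2.L at stage 37/38 had 5.74, 6.18 and 6.23 CPM with MO2, and 3.76, 5.67 and 9.01 CPM with 20 ng cMO, with a log2 fold change of -0.02 ± 0.23. The 20 ng cMO libraries spanned the MO2 range on both sides, and without their replicate 3 the value was 0.36.

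The other L copies were nearly level across conditions. Phf12.L at stage 37/38 had 36.4, 36.7 and 33.2 CPM with MO2 and 32.8, 32.8 and 33.4 CPM with 20 ng cMO, and its log2 fold changes at the 3 stages were 0.07 ± 0.10, 0.10 ± 0.10 and 0.13 ± 0.10. Thap1.L at that stage had 23.6, 22.6 and 20.7 CPM with MO2 and 19.9, 22.4 and 20.6 CPM with 20 ng cMO, and its log2 fold changes were 0.14 ± 0.11, 0.09 ± 0.11 and 0.14 ± 0.11. These fold changes were positive at each stage and about as large as their SE. Eif4g3.L at stage 37/38 had 53.2, 54.5 and 62.2 CPM with MO2 and 51.6, 52.8 and 61.5 CPM with 20 ng cMO, with log2 fold changes of -0.02 ± 0.14, 0.03 ± 0.14 and -0.14 ± 0.13 at the 3 stages. Without the library that stands apart, the stage 35/36 values were 0.03 for phf12.L, 0.21 for thap1.L and -0.03 for eif4g3.L. Over all 45 libraries phf12.L ranged from 26.8 to 40.2 CPM, thap1.L from 17.2 to 26.1 CPM, and eif4g3.L from 48.2 to 85.7 CPM, the last with its highest mean at stage 41 in every condition.

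**Figure D3:**
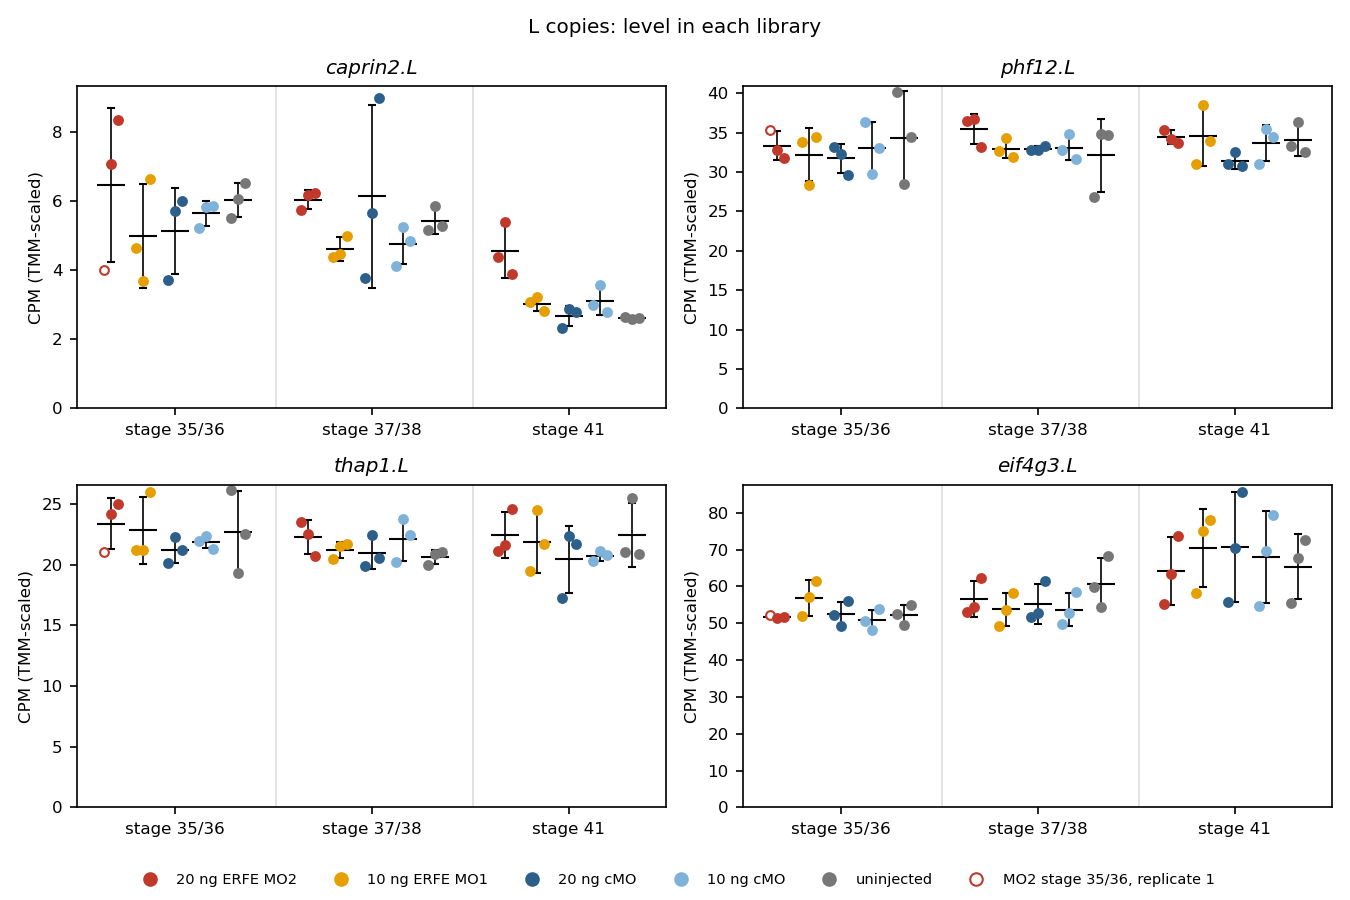
Level of each L copy (vertical axis, CPM from 0) in every library at the 3 stages, drawn as for the S copies with group means and SD (n = 3). MO2 libraries lie neither all above nor all below the other 12 of their stage, apart from caprin2.L at stage 41. There they lie at 3.88 to 5.39 CPM and the other 12 at 2.34 to 3.58 CPM. Against single conditions, the MO2 libraries also lie above MO1 and its matched cMO for caprin2.L at stage 37/38. At stage 41 they lie above the cMO matched to MO2 for phf12.L and, narrowly, above that matched to MO1 for thap1.L.

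The share of a gene's reads that came from its S copy restates the S copy values relative to the L copy within each library, free of sequencing depth. The S copies were chosen from these libraries, so the shares are a description and not a separate result. For phf12 at stage 37/38 the S share was 53.0%, 50.4% and 52.3% with MO2, a mean of 51.9% ± 1.39 (SD, n = 3), against 38.8% ± 1.41 with 20 ng cMO and 36.5% to 45% in the 12 libraries without MO2. At stage 41 the phf12 share was 49.8% ± 2.63 with MO2 and 39.2% ± 1.76 with 20 ng cMO. At stage 35/36 it was 45.9% ± 8.11 with MO2, or 50.2% ± 4.57 (n = 2) without the library that stands apart, and 41.0% ± 2.61 with 20 ng cMO. That library had a phf12 S share of 37.3%, inside the range of the other conditions.

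For thap1 the S share was 37.6% ± 0.83 with MO2 and 24.5% ± 2.96 with 20 ng cMO at stage 37/38, and 32.7% ± 1.53 with MO2 and 26.4% ± 2.57 with 20 ng cMO at stage 41. The MO2 libraries exceeded the highest thap1 share of any library without MO2, which was 30.2%, at both stages. For eif4g3 the share was 37.8% ± 5.51 with MO2 and 29.2% ± 1.67 with 20 ng cMO at stage 37/38, and 36.3% ± 8.25 with MO2 and 23.5% ± 3.48 with 20 ng cMO at stage 41. One eif4g3 library of MO2 at stage 37/38, at 31.4%, lay inside the range of the other 12, which reached 32.7%. For caprin2 the share moved the other way, with 90.1% ± 1.46 with MO2 and 94.9% ± 2.42 with 20 ng cMO at stage 37/38, and 90.4% ± 2.03 with MO2 and 96.6% ± 1.07 with 20 ng cMO at stage 41. At stage 35/36 the S shares with MO2 were 31.2% ± 3.84 for thap1, 31.3% ± 3.38 for eif4g3 and 91.3% ± 3.27 for caprin2. Without the library that stands apart, the stage 35/36 shares with MO2 were 32.9% ± 3.45 for thap1, 32.9% ± 2.72 for eif4g3 and 89.4% ± 0.44 for caprin2 (n = 2), against 25.4% ± 1.03, 30.6% ± 2.07 and 96.3% ± 0.92 with 20 ng cMO. The gene lengths of the copies are not used here, so a share is one of reads and not of transcripts, and reads that fit both copies could have been assigned to either.

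**Figure D4:**
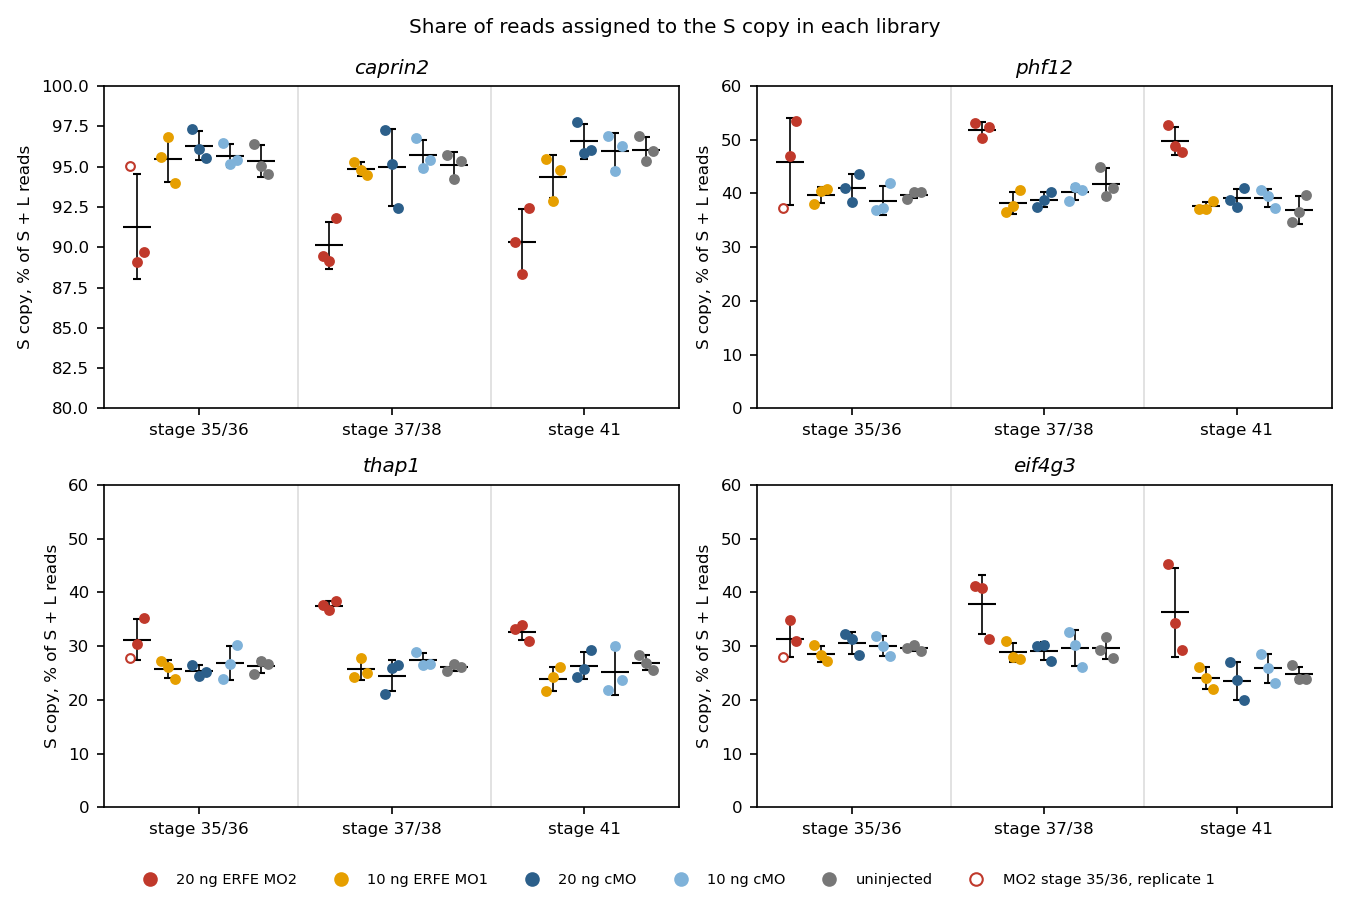
Percent of the reads of both copies that were assigned to the S copy, by library, condition and stage, with group means and SD (n = 3); the caprin2 axis runs from 80 to 100% and the others from 0 to 60%. At stage 37/38 the MO2 means are 51.9% for phf12, 37.6% for thap1, 37.8% for eif4g3 and 90.1% for caprin2.

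Taking both copies together at stage 37/38, the total with MO2 relative to 20 ng cMO went the way of the S copy in the 4 genes. The summed level of caprin2 at stage 37/38 was 62.4 ± 11.8 CPM with MO2 and 124 ± 10.5 CPM with 20 ng cMO (SD, n = 3 each), and that of phf12 was 73.8 ± 3.94 CPM with MO2 and 54.0 ± 1.70 CPM with 20 ng cMO. Thap1 had 35.7 ± 2.05 CPM with MO2 and 27.8 ± 2.51 CPM with 20 ng cMO, and eif4g3 had 91.0 ± 0.85 CPM with MO2 and 78.0 ± 5.70 CPM with 20 ng cMO. The eif4g3 total in uninjected embryos of that stage was 86.2 ± 7.52 CPM, and those libraries spanned the MO2 values. At stage 41 the eif4g3 total was 101 ± 3.93 CPM with MO2 and 92.0 ± 15.3 CPM with 20 ng cMO, with overlapping libraries. Most reads of eif4g3, thap1 and phf12 in the 20 ng cMO libraries came from the L copy, and most of caprin2 from the S copy.

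The control morpholino by itself was tested against uninjected embryos. For the S copies the test of 10 ng cMO is not independent of their choice, since those libraries are the control for MO1. With 10 ng cMO none of the 8 copies changed at any stage by edgeR (adjusted p = 1.0 for each, 0.00629% of all genes called at each stage), by DESeq2 or at an unadjusted p under 0.05, where 1.27%, 1.42% and 1.35% of all genes passed at stages 35/36, 37/38 and 41. DESeq2 called 0.00737%, 0.00737% and 0.00982% of all genes at these stages. Among the 8 copies the largest log2 differences with 10 ng cMO were at stage 41. They were 0.25 ± 0.24 for caprin2.L, 0.23 ± 0.17 for caprin2.S and -0.23 ± 0.18 for thap1.S. With 20 ng cMO none of the 4 L copies changed by either tool or at an unadjusted p under 0.05. EdgeR called 0.0157%, 0.0126% and 0.0126% of all genes at stages 35/36, 37/38 and 41, and DESeq2 called 0.0172%, 0.0147% and 0.0374%. At that unadjusted p 2.05%, 1.81% and 1.85% of all genes passed. So few genes were called that an absence of calls among 4 or 8 copies says little about them. The S copies with 20 ng cMO over uninjected, described without a test because those libraries took part in choosing them, had log2 fold changes of 0.09, 0.15 and 0.27 for caprin2.S, -0.04, -0.13 and 0.02 for phf12.S, -0.15, -0.08 and -0.16 for thap1.S, and 0.07, -0.16 and -0.01 for eif4g3.S.

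Uninjected embryos were compared between stages. Between stages 37/38 and 41 of uninjected embryos caprin2.S fell, with a log2 fold change of -0.70 ± 0.17 (edgeR adjusted p = 0.0032), and caprin2.L fell by 1.05 ± 0.24 on the log2 scale (edgeR adjusted p = 0.0013). At stage 41 caprin2.S was at 65.9 ± 15.4 CPM, against 107 ± 10.1 CPM at stage 37/38 (SD, n = 3 each). The 2 of 8 copies called are a share near the 30.1% of all genes called between those stages, and DESeq2 called 2 as well, against 30.4% of all genes. Eif4g3.S had -0.25 ± 0.11 (edgeR adjusted p = 0.093), and the 5 other copies had adjusted p of 0.30 or more. Between stages 35/36 and 37/38 none of the 8 copies changed by edgeR, by DESeq2 or at an unadjusted p under 0.05, where 0.0723% of all genes were called by edgeR, 0.82% by DESeq2 and 9.3% at that unadjusted p. With the replicate number as a block, eif4g3.L rose between those stages, with a log2 fold change of 0.21 ± 0.06 (edgeR adjusted p = 0.023), where that fit called 5.44% of all genes. Caprin2.S averaged 56.3 ± 11.7 CPM in MO2 embryos at stage 37/38, below the uninjected mean of stage 41. Phf12.S averaged 38.3 ± 2.49 CPM in MO2 embryos at stage 37/38, above its uninjected means of 22.7 ± 3.32, 22.9 ± 1.10 and 20.0 ± 2.09 CPM at stages 35/36, 37/38 and 41.

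Genes that work with the 4 proteins were taken from lists of textbook partners. Of the 147 copies tested, none changed with MO2 over 20 ng cMO at stages 35/36 and 37/38, and 1 rose at stage 41 by edgeR. Of all genes, 0.0189%, 0.0974% and 0.412% changed at the 3 stages. At an unadjusted p under 0.05 there were 4, 11 and 14 of 147 at the 3 stages, beside 5.35%, 5.2% and 8.69% of all genes. DESeq2 called 0, 2 and 2, beside 0.128%, 0.269% and 0.992% of all genes. With the replicate number as a block, edgeR called 6 of 147 at stage 37/38 and 9 of 147 at stage 41, where that fit called 1.62% and 5.8% of all genes. MO1 over 10 ng cMO changed none by edgeR or DESeq2, which called 0.39%, 0.6% and 1.51%, and 0.666%, 1.06% and 2.46%, of all genes. At an unadjusted p under 0.05 there were 5, 12 and 18 of 147 with MO1, beside 6.38%, 7.21% and 11.9% of all genes. The block called 6 and 17 with MO1 at stages 37/38 and 41, where it called 3.64% and 13.4% of all genes.

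The called partner was eif4g2.S, a relative of eIF4G proteins that lacks the part binding the cap-binding protein. Its level at stage 41 averaged 279 CPM with MO2 and 221 CPM with 20 ng cMO, a log2 fold change of 0.34 ± 0.07 (edgeR adjusted p = 0.018). With stage 41 libraries alone the adjusted p of eif4g2.S was 0.17, and it was 0.053, 0.12 and 0.085 without replicate 2 of 20 ng cMO, replicate 2 of MO2 and replicate 3 of 20 ng cMO at stage 41. In the list of eIF4F and its regulators, 1 of 28 copies tested was called at that stage and the median log2 fold change was 0.01, beside -0.01 over all genes. At stages 35/36 and 37/38 the medians of that list were -0.01 and 0.04.

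None of the remaining lists had a copy called with MO2 by edgeR without the block. For RNA granule partners of caprin proteins (17 copies) the medians at the 3 stages were -0.00, -0.03 and -0.01, and the copy nearest to the threshold was pabpc1.S, the poly(A)-binding protein that is also in the eIF4F list, at 1019 CPM with MO2 and 1308 CPM with 20 ng cMO at stage 37/38 (log2 fold change -0.36 ± 0.10, edgeR adjusted p = 0.23). The list of LRP6 and Wnt signalling (43 copies) had medians of -0.04, 0.01 and 0.06, with lrp6.S nearest at stage 41 (0.37 ± 0.14, edgeR adjusted p = 0.33). Sin3 complex and TLE corepressors (47 copies) had medians of -0.03, 0.03 and 0.02, with sap18.S, a Sin3-associated protein, nearest at stage 37/38 (0.29 ± 0.12, edgeR adjusted p = 0.77). Other THAP proteins and their cofactors (14 copies) had medians of 0.01, 0.01 and 0.02, with thap11.L nearest at stage 37/38 (0.43 ± 0.16, edgeR adjusted p = 0.64).

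**Figure D5:**
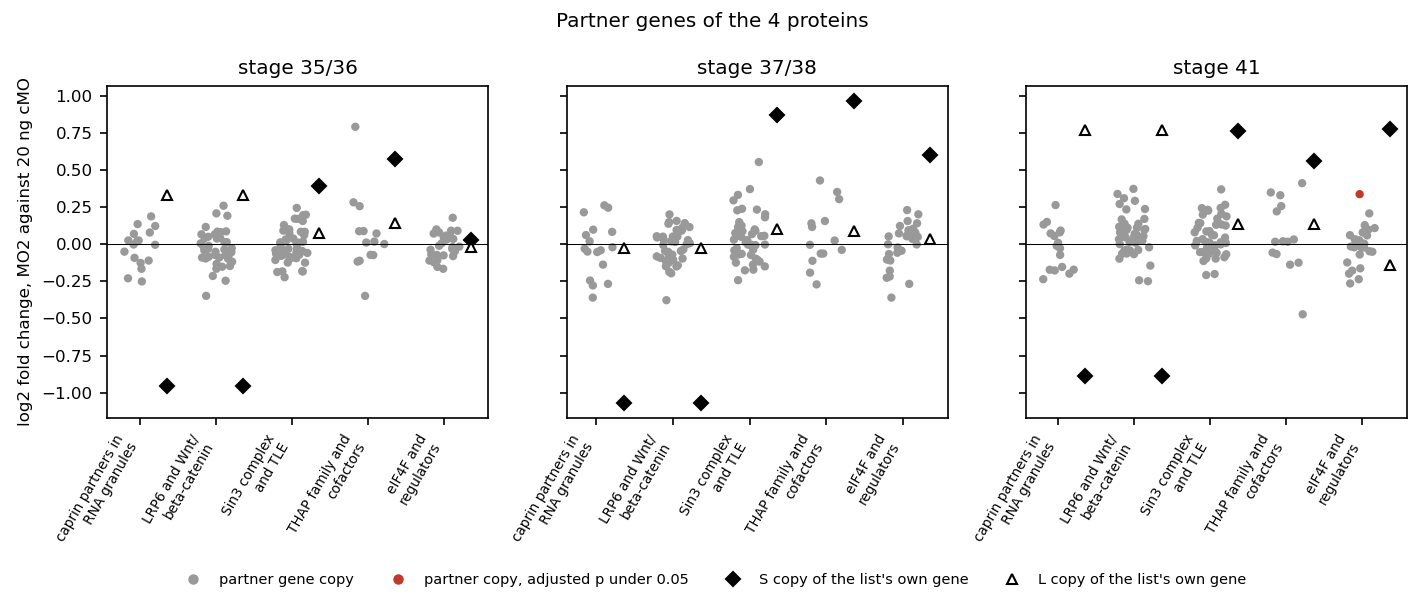
Log2 fold change with MO2 over 20 ng cMO of the tested copies of each partner list (grey points, red where the adjusted p was under 0.05) at the 3 stages, beside the S copies (diamonds) and L copies (triangles) of the 4 genes. The single red point is eif4g2.S at stage 41, at 0.34, and partner copies range from -0.47 to 0.79 over the 3 stages.

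The S copies varied together across the study. Over the 15 group means, after the mean of each stage was subtracted, Pearson's r was 0.94 between phf12.S and eif4g3.S, 0.92 between phf12.S and thap1.S, and 0.80 between thap1.S and eif4g3.S. Caprin2.S ran the opposite way, with r of -0.81, -0.83 and -0.67 to phf12.S, thap1.S and eif4g3.S. Caprin2.L had r of 0.80 with eif4g3.S and 0.77 with phf12.S, and -0.53 with caprin2.S. These points share libraries, and genes chosen for their MO2 response share the MO2 groups by construction.

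Among 20640 named genes with a mean of at least 1 CPM, the profile most like that of caprin2.S was slc12a1.L, a kidney salt transporter (r = 0.98), followed by pear1.L, an endothelial receptor (0.98), and cd34.L, a marker of vascular and blood progenitors (0.96). The most opposite was api5.S, an inhibitor of apoptosis (-0.95). For phf12.S they were dcaf12.L (0.97), a substrate receptor of a ubiquitin ligase, mcmbp.L (0.97), which binds the MCM helicase, and cdc6.L (0.96), which loads that helicase on DNA, with mettl22.L, a methyltransferase, most opposite (-0.98). For thap1.S they were trove2.L (0.97), the RNA-binding protein Ro60, pgam1.L (0.96), a glycolytic enzyme, and again cdc6.L (0.95), with pabpc1.S most opposite (-0.93). Eif4g3.S was most like mcmbp.L, fubp1.S and rexo4.S (0.94 each), and most opposite to entpd7.L (-0.94). Over the 45 single libraries in place of 15 means, r was 0.84 for slc12a1.L with caprin2.S and 0.89 for cdc6.L with phf12.S, which were then the first in rank, but 0.49 for pear1.L with caprin2.S and 0.45 for trove2.L with thap1.S. Of the other most like genes, r was 0.81 for cd34.L with caprin2.S, and 0.80 for dcaf12.L and 0.67 for mcmbp.L with phf12.S. It was 0.68 for pgam1.L and 0.86 for cdc6.L with thap1.S. With eif4g3.S it was 0.72 for mcmbp.L, 0.84 for fubp1.S and 0.77 for rexo4.S. Of the most opposite genes, r over single libraries was -0.81 for api5.S with caprin2.S and -0.84 for mettl22.L with phf12.S. It was -0.35 for pabpc1.S with thap1.S and -0.42 for entpd7.L with eif4g3.S. These genes are the extremes of a ranking over groups that include MO2, for which the S copies were chosen, so it partly restates the MO2 response.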

How the data were processed

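Each library has 1 deposited table of raw read counts for all gene identifiers. Per the submitters' processing notes, bcl2fastq 2.17.1.14, FastQC 0.11.5, STAR 2.5.2a, featureCounts 1.5.0-p1 and DESeq2 1.8.2 were used; neither the genome build nor the annotation nor the treatment of multiply mapping reads is given in the sources used here. Library preparation used TruSeq RNA v2, per the labels' protocols, a kit that does not mark strand. Homeologous copies can share reads, so differences between L and S copies are uncertain. In the RefSeq table of Xenopus_laevis_v10.1, 5 of the 8 copies were found by symbol, none with an overlapping gene. Caprin2.S and both copies of eif4g3 were not found. The neighbours timd4.L, beside caprin2.L, and dhrs13.L, beside phf12.L, had log2 fold changes of -0.19 to 0.17 with MO2 over 20 ng cMO. No neighbour of an S copy was tested.

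Counts were analysed in R 4.3.3 with edgeR 4.0.16. Genes were kept by filterByExpr (count minimum 10), which left 31817 genes with 99.97% of counts. After TMM scaling, the quasi-likelihood model was fitted with 15 group terms over 45 libraries (residual degrees of freedom 30, coefficient of biological variation 0.20). P-values are two-sided with Benjamini-Hochberg adjustment across all genes tested in a comparison, and changed means an adjusted p under 0.05. CPM are counts divided by the effective library size, 3 counts being 0.0709 to 0.155 CPM; log2 CPM for correlations used a prior count of 3 and fold changes one of 0.125. The fit was also run on simulated counts, with no outcome given here.

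The members and the lists were chosen with earlier results of these data known. The genes named are all copies of the 4 genes, the targeted gene, gene neighbours, up to 3 called copies per partner list and stage or else the copy with the smallest p, and for each S copy the 3 most like and the 1 most opposite profiles. Alternatives were RLE scaling, no filter, DESeq2 1.42.0, only the stages compared, a lane term, a block for each replicate number of a stage (which leaves 24 degrees of freedom), and omission of each library in turn. What a replicate number stands for is not stated in the labels, and the reported fit has group terms only and does not use it. Libraries with the same number deviated from their group means in a correlated way (r over 0.1) in 35 of 36 pairs, with a median r of 0.49. For MO2 and 20 ng cMO this held in 3 of 3 pairs at stages 37/38 and 41 and in 2 of 3 at stage 35/36. The pair below 0.1, at r = 0.08, holds the library labelled MO2 stage 35/36 replicate 1. The reported fit leaves this correlation out. With the block, which has terms at every stage, the coefficient of biological variation was 0.11, against 0.20.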

Additional observations from a re-analysis of the deposited data

How the results depend on the processing

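The S copies kept their sign with MO2 over 20 ng cMO in 622 of 624 values under 52 alternatives. The exception was eif4g3.S at stage 35/36. Most alternatives omit 1 library, usually from neither of the groups compared, so most signs could hardly have turned. The S copies were also chosen for this response, and the kept signs are a description. The count of called L copies stayed at 0 for MO1 and for 20 ng cMO. Caprin2.L made it 1 at stage 41 with MO2 under a lane term and under the replicate block with or without the library labelled MO2 stage 35/36 replicate 1 (that blocked fit without it was chosen after seeing the data). The same blocks called 1 of 8 copies, eif4g3.L, between uninjected stages 35/36 and 37/38, where the block called 5.44% of all genes. Of 147 partner copies with MO2, DESeq2 called 2 and 2, a lane term 1 and 3, and the block 6 and 9 at stages 37/38 and 41. Of all genes, the lane term called 94 and 700 at those stages, and the shares for DESeq2 and the block are given above. Only the stages compared gave 0 partner copies at stage 41, where 25 genes were called. The block without that library gave 4, 9 and 14 partner copies at the 3 stages, beside 368, 844 and 2363 of 32110 genes. With MO1, partner copies called were 1 and 4 with a lane term at stages 37/38 and 41, beside 417 and 1566 of 31817 genes. The block called 2, 6 and 17 at the 3 stages, beside 2.5%, 3.64% and 13.4% of all genes. The block without that library called 4, 7 and 30, beside 1081, 1519 and 5121 of 32110 genes. Nothing is read from these partner counts. The cause was not tested. Leaving out 1 library gave 0 to 2 partner copies with MO2 at stage 41 (2 without the library labelled MO2 stage 35/36 replicate 1, 0 without replicate 2 of MO2, or 2 or 3 of 20 ng cMO), 0 to 1 with MO1 at stage 37/38 (1 without its replicate 2), and 2 to 3 copies between uninjected stages 37/38 and 41 (3 without the MO2 replicate 1 of stage 41, and 3 with the block without the library that stands apart). With MO2 over uninjected at stage 41 the replicate block also called caprin2.L (0.79 ± 0.19, edgeR adjusted p = 0.0080, against 0.11 without it), where it called 8.37% of all genes; it changed no other call of a member. The count of all genes called over all alternatives ran from 1 to 368, 6 to 844 and 13 to 2363 with MO2 (6, 31 and 131 as reported), from 34 to 1081, 61 to 1519 and 108 to 5121 with MO1 (124, 191 and 479), and from 0 to 2500 between uninjected stages 35/36 and 37/38 (23, and 183 without the library labelled MO2 stage 35/36 replicate 1), the block without that library giving the most; with 1 library left out the MO2 counts were 1 to 20, 6 to 46 and 13 to 200, highest without the library labelled MO2 stage 35/36 replicate 1 at stages 35/36 and 37/38 and without replicate 1 of 20 ng cMO at stage 41, and lowest without replicate 1 of 20 ng cMO at stages 35/36 and 37/38, replicate 1 of MO2 at stage 37/38, replicates 2 or 3 of MO2 at stage 35/36 and replicate 2 of MO2 at stage 41. The MO1 counts were lowest (34, 61 and 108) without replicate 1 of MO1 at stages 35/36 and 37/38 and replicate 3 of 10 ng cMO at stage 41. Between uninjected stages 37/38 and 41 it ran from 5358 (without uninjected replicate 2 of stage 41) to 15626 (9575). Counts with 10 ng cMO ran from 2 to 5, 2 to 6 and 0 to 17, and with 20 ng cMO from 2 to 23, 2 to 22 and 0 to 23. Depth limits caprin2.L most, which had 71 to 303 counts per library.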
